A study of Homo sapiens with 6 samples.

Results

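Cytosolic ribosomal protein genes code for the structural proteins of the ribosome that works in the cytoplasm. They were taken from the count table as protein-coding rows off chromosome Y whose symbol is RPL or RPS followed by a number and at most a closing A, X or L, together with RPLP0, RPLP1, RPLP2 and RPSA. The rule used names and no measured values, and it found 80 of the 31831 genes in the table, 48 of the large subunit and 32 of the small subunit. All were measured in HK-2 cells, an established human line of renal proximal tubule epithelium, after lentiviral transfer of either a control plasmid without insert (HG-NC) or a construct for overexpression of hnRNP-F (HG-OE), an RNA-binding protein that takes part in splicing. Both groups were kept in 30 mM glucose for 72 h, so neither is a normal-glucose control, and each has 3 RNA-seq libraries. The methods speak of biological replicates and of parallel wells in each group, while the labels do not say how far apart the cultures were kept, so p-values measure the spread between these libraries, part of which may be technical.

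The ribosome consists of a small subunit, which reads the mRNA, and a large subunit, which joins amino acids and holds the exit tunnel for the new chain. Cells make the proteins of both subunits in balanced amounts, because a protein without its place in a subunit is unstable, and the mRNAs for them are among the most abundant in dividing cells. Most of these mRNAs begin with a 5′ terminal oligopyrimidine (TOP) tract, a run of C and U that starts with C, through which mTOR signalling and the RNA-binding protein LARP1 adjust their translation and stability. Loss of single ribosomal protein genes causes Diamond-Blackfan anaemia.

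The TOP tract was the sequence that these genes shared and that the rule did not use. A tract was counted where the annotated start of a transcript (RefSeq, GRCh38.p14) was a C followed on the sense strand by at least 4 further bases that were C or T. Of the 64 ribosomal protein genes with a RefSeq start window, 46 (71.9%) had such a start at 1 or more of their annotated starts. The share was 71.8% (28 of 39) for the large subunit and 72% (18 of 25) for the small subunit, against 5.14% of all 27305 genes with a window and 8.7% (6 of 69) of the genes for mitochondrial ribosomal proteins. The windows here hold 10 bases before the start and 20 from it, with the tract in capitals, for genes that rose in HG-OE (RPSA, RPL14, RPL29, RPLP0), genes that fell (RPL24, RPL35A, RPL36) and 1 gene that fell and has no tract at its annotated start (RPL27).
RPSA: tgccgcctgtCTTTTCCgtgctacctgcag
RPL14: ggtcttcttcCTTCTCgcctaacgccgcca
RPL29: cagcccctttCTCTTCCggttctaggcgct
RPLP0: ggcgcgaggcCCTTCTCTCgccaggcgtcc
RPL24: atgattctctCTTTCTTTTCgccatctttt
RPL35A: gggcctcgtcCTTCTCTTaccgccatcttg
RPL36: cggcgccagcCCTTCCgccacggccgtctc
RPL27: gtgaaaggttagcggaagtgtccttctttc
These windows lie at chr3:39406710-39406739 (RPSA, plus strand), chr3:40457329-40457358 (RPL14, plus), chr3:51995876-51995905 (RPL29, minus), chr12:120201092-120201121 (RPLP0, minus), chr3:101686699-101686728 (RPL24, minus), chr3:197950180-197950209 (RPL35A, plus), chr19:5690285-5690314 (RPL36, plus) and chr17:42998409-42998438 (RPL27, plus). Genes that rose and genes that fell both carried the tract. In RPL27 a run of C and T lies 10 bases after the annotated start, which the count does not include.

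Library totals ranged from 25507595 to 29444841 counts. HNRNPF was at 304, 318 and 311 CPM (counts scaled to a common library size) in HG-NC and at 430.1, 451 and 422 CPM in HG-OE (log2 fold change 0.48, SE 0.04, edgeR adjusted p = 2.8e-07), and counts per gene do not separate the construct from the cell's own gene. The gene identifier that the methods give for the construct may not be that of the human gene, so these counts may miss RNA of the construct. None of 12 markers of the proximal tubule reached a mean of 1 FPKM, of which SLC22A6 and SLC22A8 were not in the table, while PAX8, KRT8, KRT18, KRT19, EPCAM and CDH2 did. HG-OE replicate 3 stood apart from the other HG-OE libraries on the second principal component, with a summed level of 5 liver genes of 239 CPM against 1.11 to 6.97 CPM elsewhere and of 5 squamous epithelium genes of 69.7 CPM against 6.42 to 8.8 CPM. The counts by subunit, by role and by gene list are therefore also given without that library, where 26.7% of all genes tested were higher in HG-OE and 27.2% lower.

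The ribosomal protein genes together took a larger share of all counts in HG-OE than in HG-NC. They held 5.55%, 5.31% and 5.45% of the counts in the HG-NC libraries and 6.12%, 6.07% and 6.4% in the HG-OE libraries, so the groups did not overlap. In these bulk samples a change in the makeup of the cells and a change in RNA per cell cannot be told apart, and a share is relative to all other RNA. The share of the large-subunit genes went from 3.28% ± 0.0769 in the HG-NC libraries (mean ± SD, n = 3) to 3.7% ± 0.103 with overexpression, a ratio of 1.13. For the small-subunit genes it went from 2.16% ± 0.0451 to 2.49% ± 0.0748, a ratio of 1.16. The ratio of large-subunit to small-subunit counts was 1.52, 1.52 and 1.53 in HG-NC and 1.49, 1.49 and 1.48 in HG-OE. These ratios did not overlap between the groups and differed by more than the spread within them (1.522 ± 0.00461 against 1.485 ± 0.00326), but the HG-OE mean was still 0.976 of the HG-NC mean. Single abundant genes weigh on such sums: RPSA, in the small subunit, went from 984 to 1741 CPM on average. RPL14, RPL15, RPL29 and RPL32, which also rose, count for the large subunit. The ratio without RPSA is not given, so a change across the whole subunit is not shown by it. HG-OE replicate 3 had the highest share of ribosomal protein counts and the lowest ratio of large to small, and the other HG-OE libraries lay outside the HG-NC range without it.

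**Figure D1:**
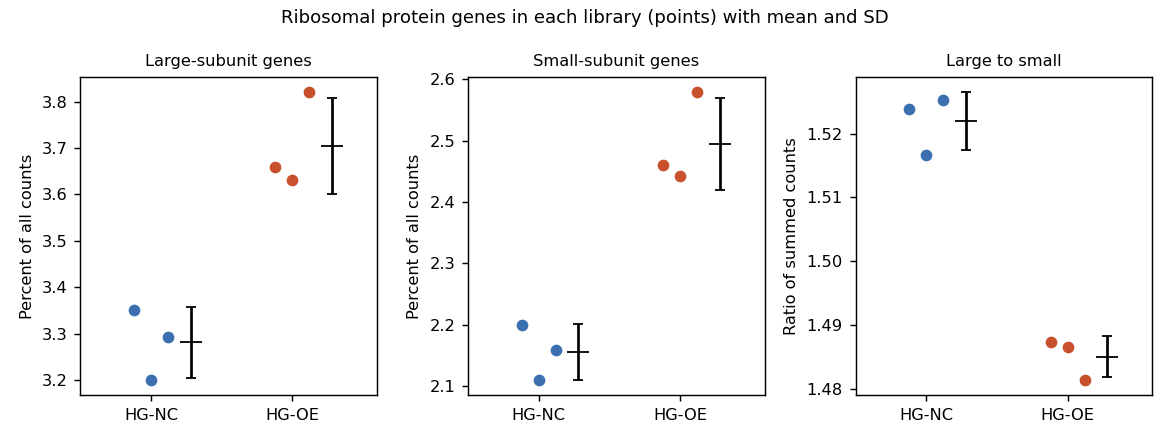
Share of all counts taken by large-subunit genes (left) and small-subunit genes (middle) in percent, and the ratio of their summed counts (right), in each HG-NC and HG-OE library, with mean and SD beside the points. Axes do not start at 0. Both shares were higher in all 3 HG-OE libraries and the ratio was lower, 1.485 against 1.522.

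More ribosomal protein genes rose than fell, in the large as in the small subunit. The low-count filter kept 79 of the 80 genes and left out RPL10L, a copy of RPL10 used in the testis, with 0 counts in every HG-NC library and 4, 0 and 3 counts in HG-OE. Of the 79, 48 (60.8%) were higher and 13 (16.5%) lower in HG-OE at an edgeR adjusted p under 0.05, and 18 passed in neither direction. Among all 17142 genes tested, 25.9% were higher and 25.9% were lower. In the large subunit, 24 of 47 genes (51.1%) rose and 11 (23.4%) fell, with a median log2 fold change of 0.11. In the small subunit, 24 of 32 (75%) rose and 2 (6.25%) fell, with a median of 0.23, and the median over all genes tested was 0.011. The difference between the subunits in these counts was not tested. No ribosomal protein gene changed 2-fold, against 5.82% of all genes tested that did so and passed the same threshold.

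By the libraries alone, 48 of the 79 genes had all 3 HG-OE values above all 3 HG-NC values in CPM and 13 had them below, against 29.6% and 29.5% of all genes tested. The large subunit had 24 above and 10 below, and the small subunit 24 above and 3 below. The number of genes that fell depended on single libraries: it was 6 without HG-NC replicate 1, 7 without HG-NC replicate 3, 7 without HG-OE replicate 2 and 20 without HG-OE replicate 3, while the number that rose ranged from 41 to 48 over the 6 libraries left out in turn. Over these 6 fits 22.1% to 26.7% of all genes tested were higher and 21.9% to 27.2% lower. Without HG-OE replicate 3, 46 rose, 24 of the large and 22 of the small subunit, and the 20 that fell were 16 of the large and 4 of the small subunit. Without any one of the other 5 libraries, 0 small-subunit genes fell past the threshold (edgeR), and 1 to 3 had an unadjusted p under 0.05. The median log2 fold change without HG-OE replicate 3 was 0.09 in the large and 0.19 in the small subunit. Against a fold of 1.2 (glmTreat), 21 genes were higher, 13 large and 8 small, and 0 were lower, also at an unadjusted p under 0.05. By glmTreat 12.5% of all 17142 genes tested were higher and 11.8% lower. The DESeq2 Wald test, which asks for no minimum fold, gave 48 ribosomal protein genes higher and 15 lower. Its shares over all 31831 genes were 11.5% higher and 12.1% lower.

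**Figure D2:**
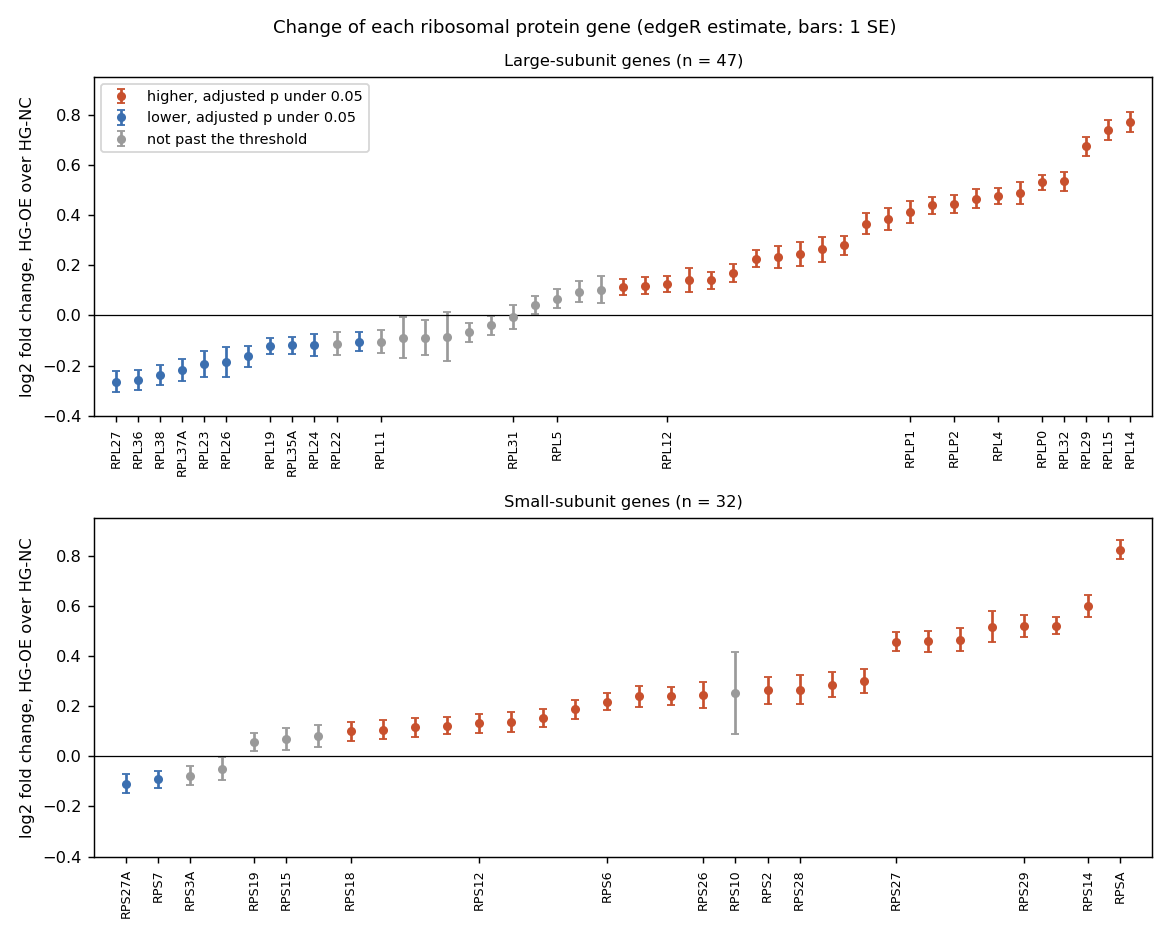
Log2 fold change (HG-OE over HG-NC, edgeR) of the 47 large-subunit genes (top) and the 32 small-subunit genes (bottom) that were tested, in order, with bars of 1 SE, colours for the adjusted p and names under some of the genes that the text describes. The large subunit ran from -0.26 (RPL27) to 0.77 (RPL14) and the small subunit from -0.11 (RPS27A) to 0.82 (RPSA), and 11 large-subunit genes against 2 small-subunit genes fell.

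The largest rise was that of RPSA, a protein on the head of the small subunit that is also known as a precursor of the laminin receptor. RPSA (chr3:39406716-39426255, plus strand, GENCODE on GRCh38) was at 1007, 949 and 997 CPM in HG-NC and at 1676, 1741 and 1806 CPM in HG-OE. The groups were far apart relative to their spread, with a log2 fold change of 0.82 (SE 0.04, edgeR adjusted p = 2.03e-09). With 3 libraries against 3, the exact two-sided permutation test cannot give a p below 0.1, which it gave here. RPL14, a large-subunit protein, followed with 481, 442 and 464 CPM in HG-NC against 786, 775 and 806 CPM in HG-OE (log2 fold change 0.77, edgeR adjusted p = 5.15e-09). RPL15, whose gene can be altered in Diamond-Blackfan anaemia, had 534, 529.7 and 534 CPM in HG-NC against 864, 863 and 939.6 CPM in HG-OE (log2 fold change 0.74, edgeR adjusted p = 8.18e-09). The HG-NC values of RPL15 lay within 5 CPM of each other, and its HG-OE replicate 3 was the highest. RPL29, a small basic protein of the large subunit, had 458, 445 and 444 CPM against 688, 725 and 736 CPM (log2 fold change 0.67, edgeR adjusted p = 1.15e-08). RPS14, on the platform of the small subunit and encoded in the region lost in 5q- syndrome, had 787, 728 and 759 CPM against 1094, 1135 and 1213 CPM (log2 fold change 0.60, edgeR adjusted p = 1.2e-07). In none of these 5 genes did the groups overlap.

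The largest falls were smaller than the largest rises and were all in the large subunit. RPL27 was at 716, 648 and 678 CPM in HG-NC and at 570.3, 544 and 585 CPM in HG-OE (log2 fold change -0.26, SE 0.04, edgeR adjusted p = 0.000169). RPL36 was at 323, 336 and 342 CPM against 279, 269 and 289 CPM (log2 fold change -0.26, edgeR adjusted p = 0.000122). RPL38, which is needed in mice for the translation of Hox mRNAs, was at 495, 458 and 474 CPM against 400.1, 393 and 416 CPM (log2 fold change -0.24, edgeR adjusted p = 0.000227). RPL37A was at 1084, 969 and 1029 CPM against 869, 857 and 924 CPM (log2 fold change -0.22, edgeR adjusted p = 0.00105). RPL23, which binds MDM2 when free of the ribosome, was at 822, 721 and 749.8 CPM against 651, 643 and 708 CPM (log2 fold change -0.19, edgeR adjusted p = 0.0056). The groups did not overlap in these 5 genes, but the gap was narrow for RPL23, between 708 and 721 CPM, and without HG-NC replicate 1 its adjusted p was 0.0552.

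**Figure D3:**
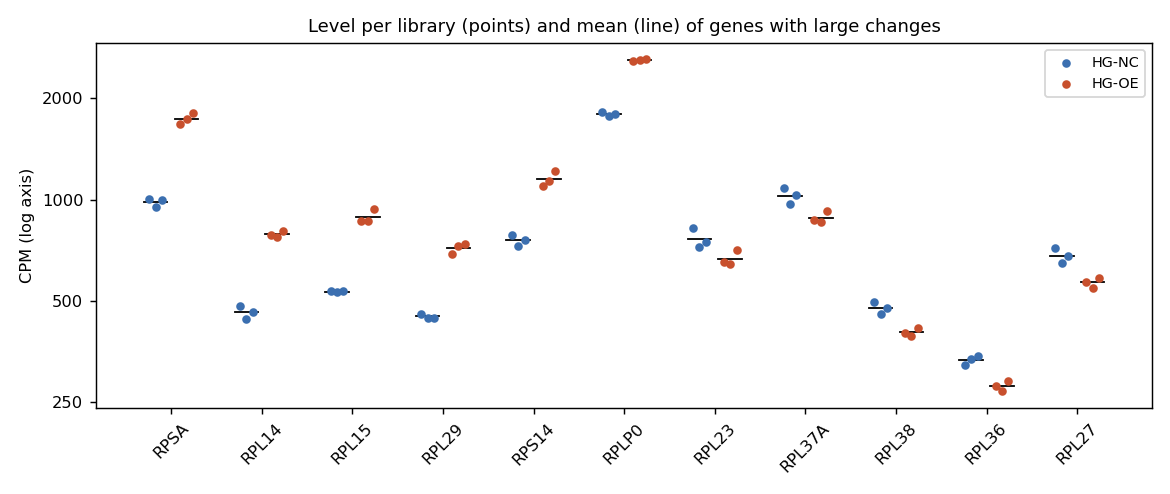
Level in CPM (log axis) of the 5 genes with the largest rises, of RPLP0 and of the 5 genes with the largest falls, with 1 point per library and a line at the group mean. The groups did not overlap in any of the 11 genes, and the rises (RPSA, 984 to 1741 CPM on average) were larger than the falls (RPL27, 681 to 567 CPM).

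The direction of change went with position in the genome. Of the 8 tested members on chromosome 3, the 5 on the short arm all rose: RPL32, RPL15, RPSA, RPL14 and RPL29, with log2 fold changes from 0.54 to 0.82. The 3 on the long arm did not: RPL24 was at -0.12 (edgeR adjusted p = 0.0362), RPL35A at -0.12 (edgeR adjusted p = 0.0117) and RPL39L at -0.09 (edgeR adjusted p = 0.307). RPL32 and RPL24 were named for their position after their values were seen. RPL32, which did not reach the 5 largest rises, had 596, 557 and 581 CPM in HG-NC and 829, 823 and 860.0 CPM in HG-OE. RPL24 had 749.9, 679 and 712 CPM in HG-NC and 644, 639.6 and 687 CPM in HG-OE, and these overlap. On chromosome 17, 5 of 6 genes fell (RPL27, RPL38, RPL23, RPL26 and RPL19) and RPL23A rose (log2 fold change 0.14). On chromosome 2, 3 of 4 fell (RPL37A, RPS27A and RPS7), and on chromosome 4, 2 of 3 (RPL34 and RPL9). Only RPL24, RPL35A and RPL36 of the genes that fell lay on other chromosomes. All 5 members on chromosome 11, all 4 on chromosome 15, all 4 on chromosome 9, all 3 on chromosome 16 and all 3 on chromosome 5 rose. Chromosome 19, with 12 members, held 5 that rose, 1 that fell and 6 that passed in neither direction.

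Other genes near a ribosomal protein gene mostly had a change of the same sign, in 54 of 79 cases by their median. This median was taken for each member over all genes outside the rule that lie within 10 Mb and have a mean of at least 100 counts. The share of all genes with the sign of their own neighbours is not given here. Around RPSA the neighbour median was 0.49 over 116 genes, around RPL14 0.49 over 140, around RPL29 0.52 over 164 and around RPL32 0.42 over 75, while around RPL15 it was 0.20 over 54. Around RPS14 it was 0.42 over 93 genes. Near RPL24 it was -0.32 over 41 genes, near RPL35A -0.11 over 46 and near RPL27 -0.23 over 231. All 13 genes that fell had a neighbour median under 0, and 32 of the 48 that rose had one over 0. Across the 79 genes the log2 fold change and the neighbour median gave Pearson r = 0.70 and Spearman rho = 0.67, and r = 0.56 and rho = 0.58 over the 71 off chromosome 3. These describe genes measured in the same 6 libraries, several of which share neighbours, and genes are not independent replicates.

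**Figure D4:**
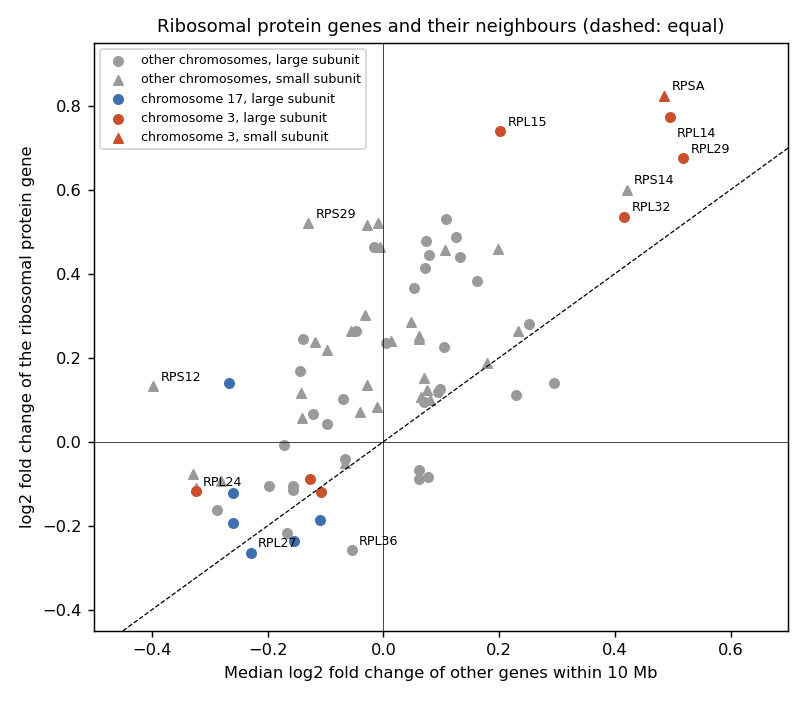
Log2 fold change of each of the 79 ribosomal protein genes against the median log2 fold change of other genes within 10 Mb, with circles for the large subunit, triangles for the small subunit and colours for chromosomes 3 and 17. The dashed line marks equal values, and 68 genes lie above it, among them all 32 small-subunit genes.

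Most members lay above their surroundings. The log2 fold change was above the neighbour median in 68 of 79 genes, 36 of 47 in the large subunit and 32 of 32 in the small subunit. The share of all genes that lie above their own neighbours is not given here. After the neighbour median was taken off each value, as if it had no error, the median was 0.13 in the large and 0.22 in the small subunit. With the edgeR p recomputed from the difference, 49 members were higher and 4 lower at an adjusted p under 0.05. Of all 17142 genes tested in that setting, 25.9% were higher and 25.9% lower. The 4 lower members were RPL36, RPL3, RPL10A and RPL8, all of the large subunit, of which RPL3 and RPL10A were named after their values were seen. Among the largest differences from the neighbours were those of RPS29 (0.65), RPS27L (0.54), RPL15 (0.54) and RPS12 (0.53). RPL36 was the furthest below its neighbours, at -0.20 with a neighbour median of -0.05 over 312 genes. Of the 13 genes that fell, 7 were above 0 once the neighbours were taken off: RPL23 (0.07), RPL9 (0.09), RPL34 (0.13), RPL19 (0.14), RPS7 (0.19), RPL24 (0.21) and RPS27A (0.21). RPL8, which rose, was at -0.12. RPL9 and RPL34 were named after their values were seen. Without the 5 genes of the short arm of chromosome 3, the other members took 5.14% ± 0.115 of the counts in HG-NC and 5.7% ± 0.164 in HG-OE, from 5.02% to 5.24% against 5.58% to 5.89%. Of those 74 tested genes, 43 rose and 13 fell, against 25.9% of all genes tested in each direction. The 5 genes themselves went from 0.301% ± 0.00711 to 0.497% ± 0.0148 of all counts, a ratio of 1.65.

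Grouped by role, the genes for the stalk of the large subunit, which recruits the elongation factors, rose in mRNA level, and protein was not measured. All 4 listed stalk genes rose, against 25.9% of all genes tested and 60.8% of the ribosomal protein genes. RPLP0, the base of the stalk, was at 1828, 1775 and 1802 CPM in HG-NC and at 2589, 2596 and 2615 CPM in HG-OE. The groups were far apart relative to their spread (log2 fold change 0.53, SE 0.03, edgeR adjusted p = 1.27e-08). RPLP1 (log2 fold change 0.41, edgeR adjusted p = 4.81e-06) and RPLP2 (0.44, edgeR adjusted p = 3.41e-07), whose acidic proteins hang on RPLP0 as dimers, rose as well. The gene RPL12, whose protein lies at the foot of the stalk, rose by less (0.12, edgeR adjusted p = 0.00572). RPLP0 is often used as a reference gene in quantitative PCR. RPL13A, also used so, was at 1206, 1187 and 1212 CPM in HG-NC and at 1134, 1137 and 1232 CPM in HG-OE, with overlapping groups (log2 fold change -0.04, edgeR adjusted p = 0.402). For RPL13A, HG-OE replicate 3 lay above all HG-NC libraries and the other HG-OE libraries lay below them. Without HG-OE replicate 3 the log2 fold change of RPL13A was -0.08 (edgeR adjusted p = 0.0277).

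Genes for proteins at the sites where mRNA leaves and enters the small subunit mostly rose. Around the mRNA exit, RPSA (log2 fold change 0.82), RPS14 (0.60), RPS28 (0.26, edgeR adjusted p = 0.00167) and RPS26 (0.24, edgeR adjusted p = 0.00127) rose. RPS28 was at 148, 155 and 154 CPM in HG-NC and at 181, 167 and 201 CPM in HG-OE, without overlap. Of the 5 genes at mRNA entry and decoding, RPS2 (0.26), RPS23 (0.24), RPS3 (0.19) and RPS9 (0.14) rose and RPS15 did not pass (0.07, edgeR adjusted p = 0.2). That is 80% of a group of 5, against 25.9% of all genes tested and 60.8% of the ribosomal protein genes. Of these 5 genes 4 also rose without HG-OE replicate 3, as did all 4 stalk genes. RPS9 lost its call without HG-NC replicate 2 (adjusted p = 0.0691, log2 fold change 0.12). RPS6, whose phosphorylation is the usual readout of S6 kinase activity, was at 999, 955 and 975 CPM in HG-NC and at 1121, 1131 and 1152 CPM in HG-OE (log2 fold change 0.22, edgeR adjusted p = 0.000102).

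The genes for proteins of the 5S ribonucleoprotein and of the exit tunnel showed no common direction. RPL5 and RPL11, which bind 5S rRNA and, when unassembled, hold MDM2 in check, did not pass the threshold. RPL5 was at 1024, 944 and 987 CPM in HG-NC and at 1022, 1021 and 1051 CPM in HG-OE, with overlap (log2 fold change 0.07, SE 0.04, edgeR adjusted p = 0.148). RPL11 was at 759, 718 and 741 CPM against 666, 659 and 737 CPM (log2 fold change -0.10, SE 0.05, edgeR adjusted p = 0.0678). HG-OE replicate 3 alone overlapped HG-NC for RPL11, and without it the log2 fold change was -0.16 with an adjusted p of 9.26e-05. Of 9 genes at the peptide exit site and along the tunnel, 3 (33.3%) rose (RPL4, RPL23A and RPL35) and 2 (22.2%) fell (RPL19 and RPL26). The other 4 passed in neither direction (RPL17, RPL22, RPL31 and RPL39). The value of RPL17 is uncertain, since a read-through gene that shares its exons held far more counts. With those counts added RPL17 rose (0.31, edgeR adjusted p = 6.31e-05). Of all genes tested, 25.9% rose and 25.9% fell, so with counts as deposited neither share of this small group was far from that of all genes. RPL4, which lines the tunnel, rose from 932, 912 and 919.9 CPM to 1272, 1271 and 1301 CPM (log2 fold change 0.48, edgeR adjusted p = 6.17e-08). RPL26 had overlapping groups (69.8 to 79.7 CPM against 61.2 to 70 CPM) and lost its call without HG-NC replicate 1, HG-NC replicate 3 or HG-OE replicate 2 (adjusted p of 0.089, 0.126 and 0.0997, with log2 fold changes of -0.17, -0.14 and -0.13). RPL23A lost it without HG-NC replicate 2 or 3 (adjusted p of 0.114 and 0.0942, with log2 fold changes of 0.12 and 0.13). RPL31 was at -0.01 with an SE of 0.05. Of the 9 genes 3 (33.3%) rose and 3 (33.3%) fell without HG-OE replicate 3, against 26.7% and 27.2% of all genes tested.

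Of the 18 genes altered in Diamond-Blackfan anaemia that were looked at, 7 (38.9%) rose, 4 (22.2%) fell and 7 passed in neither direction, with a median log2 fold change of 0.09. The share that fell was near the 25.9% of all genes tested, and the share that rose was above the same figure but below the 60.8% of all ribosomal protein genes. Without HG-OE replicate 3, 7 rose and 5 fell. RPS10, which did not pass, rose with the counts of a read-through gene that shares its exons added (0.31, edgeR adjusted p = 3.86e-06). RPL15 (0.74), RPS29 (0.52) and RPS27 (0.46) rose most, and RPL27 (-0.26) fell most. RPS19, the gene most often mutated in that disease, was at 787, 779.7 and 827 CPM in HG-NC and at 819, 821 and 848 CPM in HG-OE, with overlapping groups (log2 fold change 0.06, edgeR adjusted p = 0.207). RPS7 and RPL35A, which fell, did so by 0.09 and 0.12 on the log2 scale, and the call of RPS7 was lost without any one of 5 libraries (adjusted p from 0.0673 to 0.118, log2 fold changes from -0.10 to -0.08), HG-OE replicate 3 being the exception. That of RPL35A was lost without HG-NC replicate 1 or 3 or HG-OE replicate 2 (adjusted p from 0.0503 to 0.0706, log2 fold changes from -0.11 to -0.10).

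Per length, ribosomal protein genes were among the most abundant mRNAs but spanned a wide range. Of the 13692 protein-coding genes tested, 315 had a mean level of 100 FPKM or more, and 61 of these were ribosomal protein genes. The mean FPKM (fragments per kilobase of transcript, scaled to sequencing depth) over the 6 libraries had a median of 199 over the 80 genes, against a median of 22.4 for the 78 genes of mitochondrial ribosomal proteins. The median level was 199 FPKM for the large and 196 FPKM for the small subunit. RPS12 was highest at 1094 FPKM, followed by RPS18 (654), RPL8 (649.6), RPS3A (580.4) and RPS2 (537). Of these, RPS12 rose (log2 fold change 0.13, edgeR adjusted p = 0.00987), as did RPS18 (0.10, edgeR adjusted p = 0.0455), RPL8 (0.11, edgeR adjusted p = 0.00776) and RPS2 (0.26, edgeR adjusted p = 0.0011), while RPS3A did not pass (-0.08, edgeR adjusted p = 0.107) but did without HG-OE replicate 3 (-0.09, edgeR adjusted p = 0.0307). The call of RPS18 was lost without HG-NC replicate 2 or 3 or HG-OE replicate 2 or 3 (adjusted p from 0.0653 to 0.199, log2 fold changes from 0.07 to 0.11), and that of RPS12 without HG-NC replicate 2 (adjusted p = 0.0543, log2 fold change 0.13). Level and change showed no common trend, since log2 mean FPKM and log2 fold change had r = -0.02 and rho = -0.01 over 79 genes, a description across genes of the same libraries.

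The lowest levels were those of RPL10L (0.0467 FPKM), RPS10 (1.74 FPKM) and RPL17 (4.12 FPKM). RPS10 had 82, 123 and 127 counts in HG-NC and 159, 123 and 146 counts in HG-OE, and RPL17 had 268 to 363 counts per library. Both overlap an annotated read-through gene that shares their exons, and those held far more counts, 16485 to 23443 for RPS10-NUDT3 and 13649 to 20661 for RPL17-C18orf32, so the values of RPS10 and RPL17 are uncertain. Neither passed the threshold as deposited (log2 fold changes of 0.25 and -0.08). With the counts of the read-through genes added, both rose (0.31 for each, edgeR adjusted p = 3.86e-06 for RPS10 and 6.31e-05 for RPL17), which made 50 genes higher and 13 lower. This addition was chosen after the data were seen.

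Ribosomal protein genes also have many processed pseudogenes, copies of the mRNA inserted elsewhere that can draw reads from the parent. The table held 482 of them by name, and together they had 16667 to 20049 counts per library, 1.16% to 1.2% of the members' counts in HG-NC and 1.06% in each HG-OE library. Of the 83 pseudogenes with enough counts to test, 14 (16.9%) rose and 5 (6.02%) fell, both below the 25.9% of all genes tested that changed in each direction. With pseudogene counts added to the parent genes, 48 genes rose and 13 fell, as without them.

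Paralogs were read beside their partners, and differences within a pair were not tested. RPS27L, a p53-responsive relative of RPS27, rose from 39.4, 35.6 and 39.1 CPM to 53, 51.5 and 58.5 CPM (log2 fold change 0.52, edgeR adjusted p = 1.15e-05), and RPS27 rose by 0.46. RPL39L, a relative of RPL39 that is best known from the testis, had overlapping groups (37.1 to 39.3 CPM against 32 to 38.9 CPM), as did RPL39 (539 to 584 CPM against 576 to 619.8 CPM, log2 fold change 0.09, edgeR adjusted p = 0.0812). RPL22L1, outside the rule, fell from 103, 92.6 and 99.8 CPM to 67.1, 63.9 and 65.2 CPM (log2 fold change -0.59, edgeR adjusted p = 3.2e-07), with a neighbour median of -0.37. Its partner RPL22, an RNA-binding protein of the large subunit, was at 162 to 176 CPM in HG-NC and 148 to 161 CPM in HG-OE (log2 fold change -0.11, edgeR adjusted p = 0.0526), and it passed without HG-NC replicate 2 or HG-OE replicate 3 (adjusted p of 0.0475 and 0.0053, with log2 fold changes of -0.14 for both). RPL22 also passed with library totals in place of TMM (edgeR adjusted p = 0.046), with no low-count filter (0.0353), with the replicate number as a block (0.0312) and by the DESeq2 Wald test (adjusted p = 0.0446). RPL36AL, also outside the rule, rose by 0.62 (edgeR adjusted p = 2.23e-07), its partner RPL36A by 0.23 (edgeR adjusted p = 0.000514). RPL7L1 did not pass (-0.08) and RPL26L1 rose (0.29, edgeR adjusted p = 0.000478), with a neighbour median of 0.47. The X-linked RPS4X rose by 0.15 (edgeR adjusted p = 0.00275) and RPL10 by 0.28 (edgeR adjusted p = 3.29e-05).

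FAU codes for a protein of the small subunit joined to a ubiquitin-like protein and lies outside the rule by name. FAU was at 189, 190.5 and 207 CPM in HG-NC and at 265, 254 and 259 CPM in HG-OE (log2 fold change 0.41, edgeR adjusted p = 3.29e-06). RPS27A, a member whose protein is made joined to ubiquitin, fell by 0.11 on the log2 scale (edgeR adjusted p = 0.0278). In all, 8 of 11 listed genes of the ribosome outside the rule (72.7%) rose and 1 (9.09%), RPL22L1, fell, against 25.9% of all genes tested in each direction. Without HG-OE replicate 3, 8 rose and 2 fell, the second being RPL7L1 (log2 fold change -0.09, edgeR adjusted p = 0.0401).

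Among other gene lists of protein synthesis, those of mitochondrial ribosomes, of ribosome biogenesis and of TOP mRNA, mTOR and MYC regulators held more genes that fell than rose. Shares are to be read against the 25.9% of all genes tested that rose and the 25.9% that fell. Of 78 mitochondrial ribosomal protein genes, 18 (23.1%) rose and 28 (35.9%) fell, with a median log2 fold change of -0.05 and extremes at MRPS25 (0.61, edgeR adjusted p = 7.81e-07) and MRPS6 (-0.63, edgeR adjusted p = 6.04e-08). The share of these genes that rose was near that of all genes. Of 40 translation factors, 18 (45%) rose and 11 (27.5%, near that of all genes) fell (median 0.07), led by EIF4B (0.63, edgeR adjusted p = 8.54e-08), an aid of the helicase that unwinds mRNA leaders, and EIF4A2 (-0.70, edgeR adjusted p = 1.01e-08), a form of that helicase. Of 59 genes of rRNA synthesis and ribosome biogenesis, 10 (16.9%) rose and 35 (59.3%) fell (median -0.21), with NHP2 (0.46, edgeR adjusted p = 1.54e-06) and NOP58 (-0.68, edgeR adjusted p = 1.17e-07), both proteins of small nucleolar ribonucleoproteins, at the ends. Of 19 tested regulators of TOP mRNA, mTOR and MYC, 5 (26.3%, near that of all genes) rose and 8 (42.1%) fell. They ran from MXD4 (1.02, edgeR adjusted p = 6.31e-09), an antagonist of MYC, to the S6 kinase gene RPS6KB1 (-0.77, edgeR adjusted p = 5.26e-07). That list joins genes of opposite action, such as MYC and MXD4, so its counts give no direction of regulation. Without HG-OE replicate 3, 17 mitochondrial ribosomal protein genes rose and 30 fell, 19 translation factors rose and 12 fell, 10 biogenesis genes rose and 36 fell, and 5 regulators rose and 8 fell. The difference between these lists and the ribosomal protein genes was not tested.

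**Figure D5:**
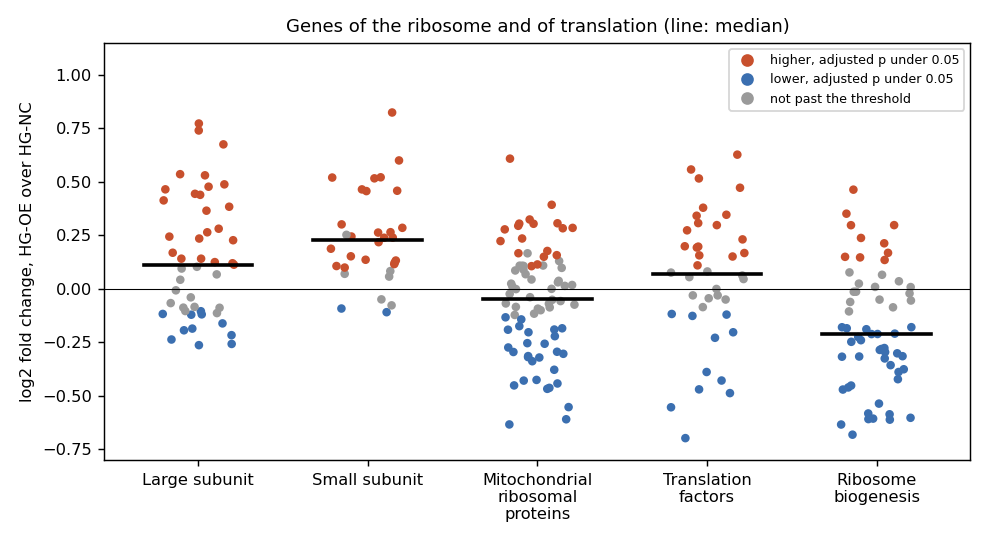
Log2 fold change (HG-OE over HG-NC) of each tested gene, coloured by the adjusted p, in the large and small subunits, mitochondrial ribosomal proteins, translation factors and ribosome biogenesis, with a line at each median. The medians were 0.11, 0.23, -0.05, 0.07 and -0.21.

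The changes of genes with and without a TOP tract at an annotated start covered the same directions. Of the 46 with a TOP start, 27 rose and 8 fell (median log2 fold change 0.13), and of the 17 tested with a window and no TOP start, 10 rose and 4 fell (median 0.15). Of all genes tested, 25.9% rose and 25.9% fell, and the share that fell among those without a TOP start was near that. Without HG-OE replicate 3, 26 (56.5%) of the first set rose and 13 (28.3%) fell, and 10 (58.8%) of the second rose and 5 (29.4%) fell. In that fit 26.7% of all genes tested rose and 27.2% fell, so the shares that fell were near that of all genes. The difference between the 2 sets was not tested.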

How the data were processed

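RNA-seq was done on poly(A) RNA with a directional kit in 3 HG-NC and 3 HG-OE libraries. After trimming, the authors used HISAT2 with GRCh38 and kept uniquely mapped reads; the deposited counts are whole numbers per gene and carry no normalization. The deposited FPKM values, which the authors computed from those reads, were used for levels between genes and for an alternative test. The counting tool and annotation release are not given in the sources used here. The study names ComBat_seq for batch correction, and whether it entered these counts is not stated there, and no batch was modelled. Depth was 25507595 to 29444841 counts, and limits on a count of 0 (3 counts) cover counting error only.

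Counts of all genes were fitted in R 4.3.3 with edgeR 4.0.16 (TMM, default filter on low counts, quasi-likelihood test, group only, Benjamini-Hochberg adjustment over 17142 genes), and a call was an adjusted p under 0.05. Alternatives used DESeq2 1.42.0, limma 3.58.1, glmTreat, other scaling and filters, a replicate block, left-out libraries, merged pseudogenes or read-through genes, and the neighbour median. Positions came from GENCODE 44, whose IDs matched 31742 of 31831 genes and all 80 members. Named members were the 5 largest called rises and falls, the 5 highest and 3 lowest FPKM, genes left out by the filter, the role groups and a few well-known genes, and each other list gave its largest called rise and fall. The members and lists were chosen with earlier results of these data known. The steps were tested on simulated data. Values of some single genes of these lists are not reported here.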

Additional observations from a re-analysis of the deposited data

How the results depend on the processing

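The counts of genes that rose kept within 1.5 times their value under every alternative except glmTreat against a fold of 1.2, which gave 21 higher and 0 lower (13 and 0 in the large, 8 and 0 in the small subunit). By glmTreat 12.5% of all genes tested were higher and 11.8% lower. The counts that fell were less stable. Upper-quartile factors, which moved the median of all genes tested from 0.011 to 0.04, gave 8 lower, 0 of them in the small subunit. With these factors 23.5% of all genes tested were lower. With no low-count filter 1 small-subunit gene was lower, limma on log2(FPKM + 1) without a filter gave 8 lower (7 large, 1 small), and taking off the neighbour median gave 6 lower (6 large, 0 small) with the call kept where the sign was unchanged, or 4 lower (4 large, 0 small) with the p recomputed, which was added after the data were seen. With each library left out in turn, 41 to 48 genes were higher and 6 to 20 lower, of which 23 to 25 and 6 to 16 were in the large and 18 to 24 and 0 to 4 in the small subunit. The median log2 fold change of the large subunit stayed between 0.09 and 0.14 and that of the small subunit between 0.19 and 0.26 over all alternatives with a value. Same-numbered libraries of the groups did not deviate together (correlations of -0.0273, 0.0301 and -0.000993), so no pairing by number was seen. With 3 libraries a group and HG-OE replicate 3 apart from the others, these values cannot exclude a shared batch. With the replicate block 47 genes were higher and 14 lower. Taking off the neighbour median turned the sign of RPL23 (0.066), RPL8 (-0.12), RPS3A (0.25), RPL11 (0.052), RPL19 (0.14), RPL22 (0.042), RPL31 (0.16), RPS7 (0.19), RPL39L (0.039), RPL13A (0.026) and RPL26L1 (-0.17). RPL31, at -0.01, was above 0 with upper-quartile factors (0.022) and with at least 10 counts in every library (0.00016), and ran from -0.063 to 0.031 over the libraries left out. RPL17 was at 0.314 with read-through counts and ran from -0.15 to 0.00242 over the libraries left out, the latter without HG-NC replicate 3. The cause of these changes was not tested. Over the named genes, 1093 of the alternative values kept direction and side of the threshold, 93 kept direction and lost the call, 23 kept direction and gained it, and 30 changed sign. Depth limited RPL10L, since 0 counts allow up to 3. The control and the construct each reached the cells by lentivirus, the labels give no batch, and 3 libraries a group limit single-gene tests to a permutation p of 0.1.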

Other observations

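Many ribosomal protein genes carry a gene for a small nucleolar RNA (snoRNA) in an intron, which guides the modification of rRNA and is freed when the host transcript is spliced. By GENCODE, 28 of the 79 tested ribosomal protein genes hold at least 1 snoRNA gene on their own strand. Of these hosts, 20 rose and 1 fell in HG-OE (RPL23, which holds 2), with a median log2 fold change of 0.18, and of the 51 other genes 28 rose and 12 fell, with a median of 0.12. Of all genes tested, 25.9% rose and 25.9% fell, and the share of the other genes that fell was near that. Without HG-OE replicate 3, 20 hosts (71.4%) rose and 4 (14.3%) fell, and 26 of the other genes (51%) rose and 16 (31.4%) fell. In that fit 26.7% of all genes tested rose and 27.2% fell. RPL4, which holds 5 snoRNA genes, rose by 0.48 on the log2 scale. RPL23 and RPL4 were picked out after their values were seen, and the difference between hosts and other genes was not tested. The snoRNAs themselves were not analysed here.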
